A study of Mus musculus with 4 samples.

Results

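Conventional type 1 dendritic cells (cDC1) were followed here in mouse liver, among single-cell RNA profiles of CD45+ leukocytes from exercised and sedentary mice. A barcode was taken as a cDC1-like cell if at least 3 of 6 genes (Xcr1, Clec9a, Naaa, Itgae, Snx22 and Wdfy4) had at least 1 unique molecular identifier (UMI, 1 count of 1 captured transcript). It also had to have fewer than 3 of 6 Kupffer cell genes, 0 UMIs of Siglech, Cd79a and Cd3e, and fewer than 2 of 6 genes of mature dendritic cells. These limits left 185 cDC1-like cells of 15020 barcodes kept, or 1.23%. All 4 libraries came from adult wild-type C57BL/6 mice, and CD45+ cells were taken from the non-parenchymal fraction with magnetic beads before droplet sequencing with a 10x Genomics kit. The exercise group (2 libraries) ran on a motorized treadmill at 12.5 m/min for 60 min per day on 5 days per week during 4 weeks. The sedentary group (2 libraries) was put on a treadmill that did not move, on the same schedule. The labels give a serum alanine aminotransferase of 26 and 59 U/L at harvest for the exercise libraries and of 33 and 56 U/L for the sedentary ones. Below, 4 values in a row follow the order exercise 1, exercise 2, sedentary 1 and sedentary 2. The labels do not say whether a library is 1 mouse, so p-values measure the spread between these libraries, which may be partly technical.

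Dendritic cells take up antigen and show it to T cells. The cDC1 lineage depends on the transcription factors IRF8, BATF3 and ID2 and on the growth factor receptor FLT3. It is known for cross-presentation, the loading of peptides from engulfed cells onto MHC class I for CD8 T cells. CLEC9A binds actin exposed by dead cells, XCR1 is the receptor for a chemokine made by activated CD8 T cells and NK cells, and TLR3 senses double-stranded RNA in endosomes. The other dendritic lineages are cDC2, which are better known for presenting to CD4 T cells, and plasmacytoid dendritic cells (pDC), which are known for type I interferon.

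BATF3 and IRF8 can bind DNA together at sites that join an AP-1 element to an IRF element, and IRF8 also pairs with ETS factors such as PU.1. Promoter windows (250 bases before to 50 after the start, RefSeq on GRCm38.p6) were found for 23 of the 28 genes that define or mark the cells. The ETS-IRF motif, GGAA and then GAAA with 2 free bases between them, was in the windows of 2 of these genes (Bcl6 and Cd8a), against 3.16% of 27025 genes in the table. The IRF pair, GAAA and then GAAA with 2 free bases between them, was in 2 (Ifi205 and Dpp4), against 3.99%, and the AP-1 letters TGANTCA in 1 (Zbtb46), against 8.97%. The joined AP-1 and IRF form, TTTC and then TGANTCA with 4 free bases between them, was in 0 of the 23, against 0.133% of genes. Both strands were searched. The ETS-IRF motif and the IRF pair share their last letters and may overlap, as may the AP-1 letters and the joined form. The stretches around 1 match per gene are shown because Ifi205, Dpp4 and Cd8a are among the identity genes measured below and Bcl6 is a factor of this lineage with 32 UMIs here. Capitals mark the match, and a match is a description of letters only. Cd8a held a further ETS-IRF match at -136 to -127, which lies in lower case within its stretch. Ifi205 held a further IRF pair from position 23, outside its stretch.
Ifi205, chr1:174031855-174031914, minus strand, match at -134 to -125 from the start: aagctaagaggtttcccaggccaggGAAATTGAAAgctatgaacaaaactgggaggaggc
Dpp4, chr2:62412249-62412308, minus strand, match at -52 to -43, read on the other strand: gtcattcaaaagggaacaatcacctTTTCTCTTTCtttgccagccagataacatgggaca
Cd8a, chr6:71373244-71373303, plus strand, match at -158 to -149, read on the other strand: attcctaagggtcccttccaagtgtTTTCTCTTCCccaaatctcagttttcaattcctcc
Bcl6, chr16:23981284-23981336, minus strand, match at -28 to -19: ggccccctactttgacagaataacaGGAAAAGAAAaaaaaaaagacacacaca

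The cDC1-like cells numbered 36, 41, 65 and 43 by library. They were deeply sampled for these libraries, with a median of 9936.5, 8948, 7775 and 8444 UMIs per cell in that order, against 2065.5 to 2899 over all barcodes kept. Their summed counts were 353696, 385629, 509880 and 352648 UMIs. The mitochondrial share was low and even, with library medians of 2.32% to 2.48%. Pairs of libraries shared 11 to 31 barcode sequences, and 0 cDC1-like cells carried a barcode that was cDC1-like in another library. For comparison, 54 cDC2-like cells (10, 19, 12 and 13) and 369 pDC-like cells (77, 131, 70 and 91) were chosen with rules of the same form. cDC2-like cells had at least 3 of Cd209a, Clec10a, Mgl2, Clec4a4, Sirpa and Ltb, and pDC-like cells at least 3 of Siglech, Ccr9, Klk1, Cox6a2, Pacsin1 and Ly6d. Their library medians were lower, at 4745 to 6614.5 UMIs per cDC2-like cell and 3816.5 to 4728 per pDC-like cell.

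The genes of the rule describe the cells and are given without a test. Levels are CPM, the UMIs of a gene per 1e+06 UMIs of the summed cells in each library. Xcr1 stood at 385, 376, 353 and 332 CPM, and was seen in 84.6% to 92.7% of cells. It had 0 UMIs in cDC2-like and pDC-like cells. Their rules limited the 6 genes, so low levels there follow in part from the choice of cells. Naaa, a lysosomal amidase, was the most abundant of the 6 at 1035, 952, 816 and 632 CPM. Wdfy4, which is required for cross-presentation of cell-bound antigen, averaged 312 ± 45.2 CPM (SD, n = 4) and was seen in 90.8% to 95.1% of cells. Clec9a averaged 182 ± 25.7 CPM and 48.6 CPM in pDC-like cells, of which 18.4% had a UMI. Itgae (CD103, the integrin that marks tissue cDC1) averaged 121 ± 24.6 CPM and Snx22 103 ± 24.3 CPM, and each was missed in many cells, with 46.2% to 69.4% and 44.2% to 63.1% of cells positive.

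Flt3, the fifth marker given for these cells, was outside the rule and serves to check the label. It was seen in 67.7% to 83.3% of cDC1-like cells by library, against 29.6% of cDC2-like and 28.5% of pDC-like cells pooled. The cDC1-like cells were sampled more deeply, so these shares are not at equal depth. With each cell thinned to 1000 UMIs, Flt3 was seen in 13.9% to 22.0% of cDC1-like cells by library. The thinned ranges were 0% to 20% in cDC2-like and 6.49% to 9.89% in pDC-like cells. The cDC1-like range then lay above the pDC-like range but overlapped the cDC2-like range. Irf8 was seen in 98.5% to 100% of cDC1-like cells, Id2 in 94.4% to 100%, Batf3 in 76.9% to 92.7% and Cadm1, an adhesion molecule of this lineage, in 61.5% to 80.6%. Batf3 was seen in 50% of cDC2-like but only 1.63% of pDC-like cells. Cd8a, which marks cDC1 of lymphoid organs, was seen in 6.98% to 17.1% of cells, and Zbtb46, a factor of conventional dendritic cells, in 14% to 36.6%. The rule kept out cells with 2 or more genes of the mature, migratory state, so low levels of that state's genes follow in part from the choice of cells. Il12b had 0 UMIs, and Ccr7, the receptor that guides dendritic cells to lymph nodes, had 15, of which 13 came from 1 cell of sedentary replicate 2. Apol7c, 1 of the 6 mature genes of the rule, was concentrated in single cells, with 16 of 19 UMIs, 48 of 53, 15 of 17 and 7 of 11 from 1 cell in each library.

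The threshold of 3 genes cut a gradient. Among barcodes that passed the other limits, 54 had exactly 2 of the 6 genes and 42 had exactly 3. Of those with 2 genes, 42.6% had Flt3, 46.3% Batf3, 70.4% Irf8 and 20.4% Cadm1. With exactly 3, the shares were 54.8%, 64.3%, 97.6% and 35.7%, and among the 48 barcodes with all 6 genes they were 83.3%, 87.5%, 100% and 87.5%. Cells just inside the threshold thus had Batf3 and Cadm1 less often than those with every gene, as a description of the choice. Depth differed too, so these shares are not at equal depth. Library medians were 4282 to 8174.5 UMIs with 2 genes, 2612 to 7132.5 with exactly 3 and 9069 to 10690 with all 6. The part of depth in these shares was not tested.

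The limit on Kupffer genes removed many barcodes that carried the cDC1 genes, and removed them unevenly. Of the 80, 85, 88 and 79 barcodes with at least 3 cDC1 genes, it took out 31, 39, 8 and 22, or 38.8%, 45.9%, 9.09% and 27.8%. These barcodes held few Kupffer transcripts, with a median of 4 or 5 UMIs of the 6 Kupffer genes by library. Members held 1 or 2, and all barcodes with at least 3 Kupffer genes held 26.5 to 37. The 78 barcodes kept out by this limit alone had Flt3 in 75.6%, Batf3 in 88.5%, Irf8 in 92.3% and Cadm1 in 78.2%. The absence of Siglech, Cd79a and Cd3e took out 44 barcodes and the limit on mature genes 3. The plot of barcodes by outcome of the rule shows the imbalance between libraries.

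**Figure D1:**
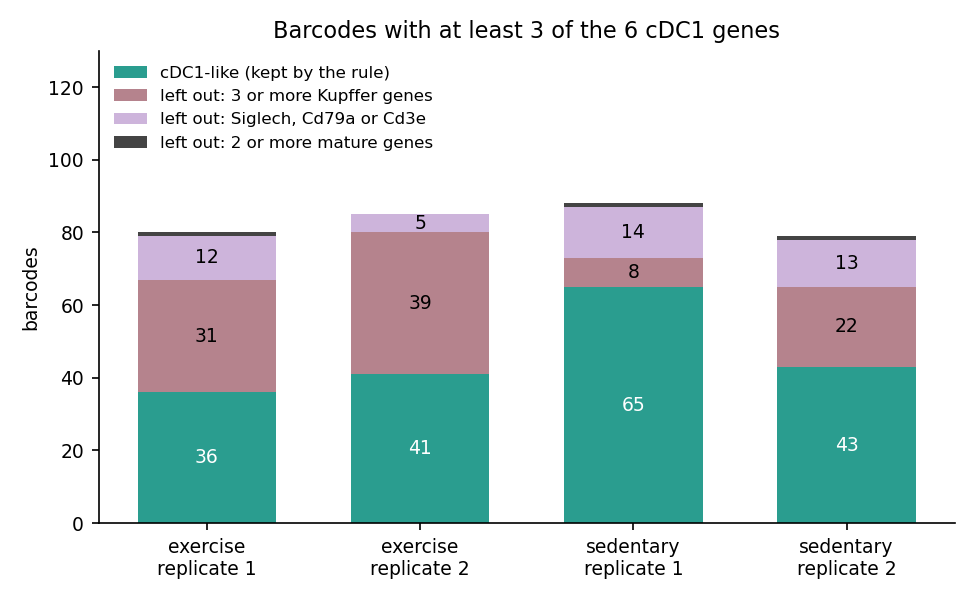
Barcodes with at least 3 of the 6 cDC1 genes in each library (y axis, number of barcodes), divided by whether they met every limit or which limit kept them out. The Kupffer gene limit took out 31 and 39 barcodes in the exercise libraries and 8 and 22 in the sedentary libraries.

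The cDC1-like share of kept barcodes did not separate the groups. It was 1.23% (exact 95% binomial interval 0.866 to 1.70), 0.971% (0.698 to 1.32), 1.61% (1.25 to 2.05) and 1.12% (0.808 to 1.5) by library. Sedentary replicate 1 was highest and exercise replicate 2 lowest, and the groups overlapped. The group means were 1.10% ± 0.186 (SD, n = 2) and 1.36% ± 0.353 (SD, n = 2), a difference of -0.262 percentage points (exact two-sided permutation test, p = 0.667, where 2 against 2 libraries cannot go below 0.33). Without the Kupffer limit the direction turned, with 1.91% ± 0.215 in exercise and 1.64% ± 0.0757 in sedentary libraries over 263 cells (exact permutation p = 0.33, both exercise libraries higher). The share of dendritic barcodes (cDC1-like, cDC2-like, pDC-like and mature) was 24.1% ± 4.79 in exercise and 33.5% ± 9.37 in sedentary libraries (exact permutation p = 0.667). Intervals cover counting error only.

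Against cDC2-like cells, the cDC1-like cells had higher levels of Irf8, Batf3, Id2, Flt3, Tlr3, Ppt1 and Rab7b, and lower levels of Clec4b1, Clec4a1, Tmem176a, Tmem176b, Ccl9, Zeb2 and Ctss. Counts were summed per library and cell type and fitted with edgeR's quasi-likelihood test with the library as a block, and a gene passed at an adjusted p (Benjamini-Hochberg) under 0.05. Of 2454 genes tested, 185 were higher and 200 lower in cDC1-like cells, so 15.7% of genes passed, 7.54% as higher and 8.15% as lower. Against pDC-like cells, 1010 were higher and 1076 lower of 4104, so 50.8% passed, 24.6% as higher and 26.2% as lower. In that comparison the direction of small changes rested on the scaling: with library totals as the only scaling, the median of all genes moved from -0.018 to -0.40 (log2), and 629 were higher and 1857 lower. All changes below are on the log2 scale after TMM scaling, and CPM values are scaled by library totals. Related sequences can exchange reads, so levels of MHC genes, of Ifi205 and its HIN-200 relatives, of Csf2rb and Csf2rb2 and of the Clec4a lectins are less certain. Both comparisons use the same cDC1-like sums, so their results are not independent of each other. The cells were chosen by the genes of the rules, and genes used by any of the rules compared carry no test. A gene at or near 0 on either side passed the low-count filter through the other side alone. Its direction was thus set by that filter, here and in all lists below.

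Of the 22 genes on a list of cDC1 identity outside the rule, 16 could be tested against cDC2-like cells. Of these, 15 were higher (93.8% called, beside 15.7% of all genes). The other, Dpp4 (CD26), stood at 59.6 ± 19.4 against 48.5 ± 30.9 CPM. The list's median change was 3.81, or 3.09 with genes at 0 set to their lower bound, beside -0.00081 for all genes tested. Genes at or near 0 in the other cell type passed the low-count filter through cDC1-like cells alone, so their direction was set by the filter. Against pDC-like cells 17 could be tested, with 15 higher and 2 lower (Irf8 and Cd8a), and a median of 3.98 beside -0.018 for all genes. That is 100% called, beside 50.8% of all genes. The plot of identity genes by library shows that the 4 cDC1-like sums lay close together.

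**Figure D2:**
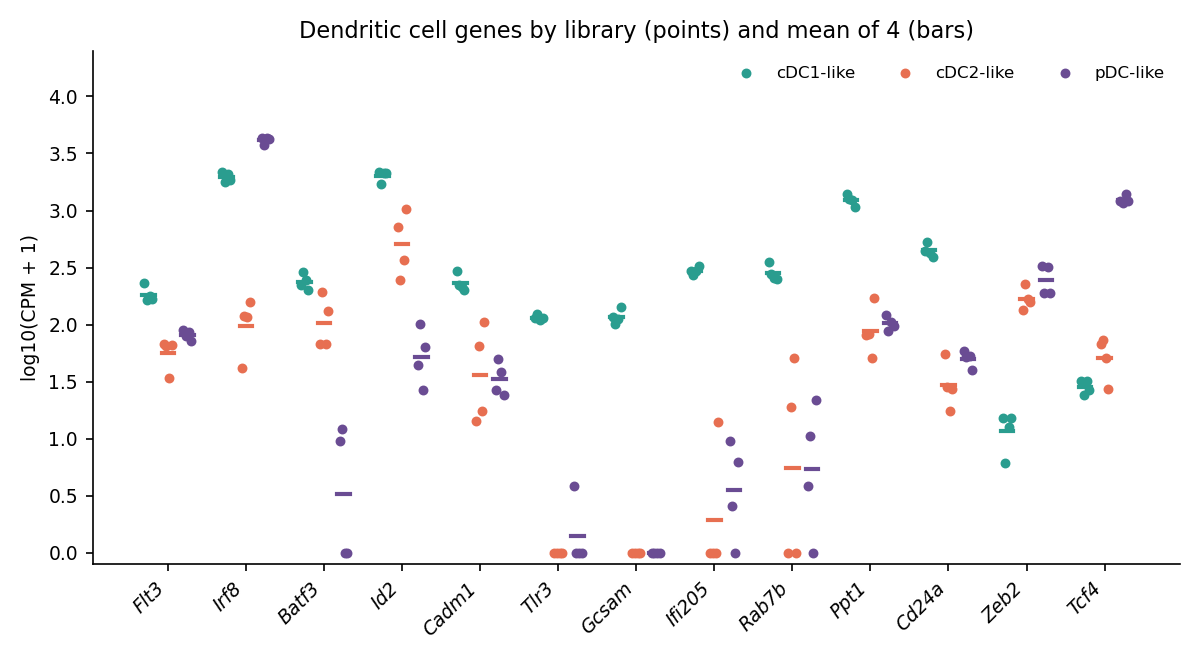
Levels of 13 genes in the 4 libraries, as log10 of CPM + 1 (y axis), for cDC1-like, cDC2-like and pDC-like cells; each point is 1 library and each bar the mean of the 4 log values. Gcsam, Tlr3 and Ifi205 were at or near 0 outside the cDC1-like cells, and Irf8 was highest in pDC-like cells.

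Irf8, the lineage-defining interferon regulatory factor, stood at 2166, 1771, 2069 and 1857 CPM in cDC1-like cells. It ranged from 40.4 to 157 CPM in cDC2-like cells and from 3730.2 to 4319 in pDC-like cells. The 3 cell types did not overlap: the change was 4.2 ± 0.22 (SE) against cDC2-like cells and -0.72 ± 0.07 against pDC-like cells. Batf3, the partner of IRF8 in this lineage, stood at 221, 288, 247 and 201 CPM, against 67.3, 191, 66.6 and 131 in cDC2-like cells and 0 to 11.1 in pDC-like cells. Every cDC1-like sum lay above every cDC2-like sum, with a change of 1.07 ± 0.26 (adjusted p = 0.00491, edgeR), and the change against pDC-like cells was 5.62 ± 0.26. Id2, an inhibitor of E proteins that opposes the pDC factor TCF4, stood at 2154, 1714, 2126 and 2127 CPM, against 245 to 1036 in cDC2-like cells and 26.0 to 100.2 in pDC-like cells. Tcf4 had the reverse order, at 27.8 ± 4.03 CPM in cDC1-like, 54.0 ± 20.9 in cDC2-like and 1238 ± 99.7 in pDC-like cells (change against pDC-like cells -5.10 ± 0.14).

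Flt3 stood at 229, 163, 177 and 167 CPM in cDC1-like cells, against 33.3 to 67.3 in cDC2-like and 70.2 to 89.0 in pDC-like cells. The changes were 1.67 ± 0.30 and 1.54 ± 0.16, with no overlap between cDC1-like cells and either of the others. Cadm1 averaged 233 ± 43.2 CPM, against 49.6 ± 43.4 and 33.9 ± 11.9 (2.18 ± 0.36 and 3.05 ± 0.18). Cst3, the protease inhibitor cystatin C, was the most abundant gene of this list, at 22180.1, 23712, 20958 and 22745 CPM, against 4212 ± 842 and 1593 ± 80.7. Its changes were 2.48 ± 0.12 and 4.18 ± 0.07.

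Some identity genes were at or near 0 in cDC2-like and pDC-like cells. Gcsam (chr16:45610380-45622867, GRCm38), a signalling adaptor better known from germinal centre B cells, stood at 116, 101, 112 and 142 CPM in cDC1-like cells. It had 0 UMIs in both of the others, which makes it at least 12.5-fold higher than in cDC2-like and at least 63.5-fold higher than in pDC-like cells, with 3 counts over the group as the floor. Tlr3 (chr8:45395665-45411080) stood at 113, 122, 108 and 113 CPM, with 0 UMIs in cDC2-like cells (at least 12.1-fold) and 1 UMI in pDC-like cells (185-fold, 95% counting interval 32.8 to 7359). Ifi205, an interferon-inducible gene of the HIN-200 family whose promoter stretch is shown above, stood at 294, 269.7, 296 and 326 CPM. It had 1 UMI in cDC2-like cells (94.9-fold, 17.0 to 3757) and 6 in pDC-like cells (change 6.54 ± 0.27). The cDC2-like sums were small, which widens these intervals.

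Lysosomal and surface genes followed. Ppt1, a lysosomal thioesterase, averaged 1236 ± 123 CPM, against 95.7 ± 52.0 in cDC2-like and 102 ± 14 in pDC-like cells (3.72 ± 0.23 and 3.98 ± 0.11). Rab7b, a small GTPase of late endosomes, averaged 283 ± 48.3 CPM, against 17.0 ± 23.5 and 8.30 ± 9.24. Cd24a averaged 449 ± 60.1 CPM, against 31.0 ± 16 and 49.8 ± 7.76. Each of these genes was higher in 4 of 4 libraries in both comparisons. Cd36, a scavenger receptor, averaged 145 ± 43.7 CPM, with 2 UMIs in cDC2-like cells (22.9-fold, 6.28 to 190.5). Btla, an inhibitory receptor, averaged 105 ± 22.4 CPM, against 26.1 ± 12.2 and 22.6 ± 6.39. Cd8a went the other way against pDC-like cells, at 27.0 ± 12.7 against 96.3 ± 17.6 CPM (-1.46 ± 0.24), and had 2 UMIs in cDC2-like cells.

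Beyond the lists, the genes most raised over cDC2-like cells by size of change included Ctla2b, a cysteine protease inhibitor (109 ± 34.5 CPM), Ttc39a (73.8 ± 14.3), the unnamed transcript A530099J19Rik (73.1 ± 23) and Fcrla, an Fc receptor-like protein (57.3 ± 6.92). All had 0 UMIs in cDC2-like cells, which gives at least 11.2-fold, 7.94-fold, 7.74-fold and 6.14-fold in that order. They passed the low-count filter through cDC1-like cells alone, so their direction was set by that filter. Sept3, a septin on the identity list, was also at 0 there (56.3 ± 8.57 CPM, at least 5.94-fold). Among the most lowered were Clec4b1 (6.09 ± 2.60 against 245 ± 61.9 CPM, change -5.13) and Clec4a1 (6.52 ± 2.99 against 132 ± 55.6, -4.13), both C-type lectins. The membrane proteins Tmem176a (10.7 ± 8.25 against 362 ± 129.7, -4.99) and Tmem176b (25.8 ± 11.9 against 668 ± 116, -4.65) and the chemokine Ccl9 (14.9 ± 19.9 against 371 ± 123, -4.54) were lowered too. Ifitm6, Mcemp1 and Trps1 completed this set at -4.81, -4.72 and -4.06. A lower cDC1-like sum in 4 of 4 libraries was a condition for naming these 8 genes.

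Kupffer transcripts differed between these cells beside that comparison. The 11 Kupffer markers, which include the 6 of the rule, summed to 588 to 757 CPM in cDC1-like, 1144 to 1880 in cDC2-like and 520 to 768 in pDC-like cells, against 13176 to 18437 over all kept barcodes. C1qa, C1qb and C1qc were lower in cDC1-like than in cDC2-like cells (-1.37, -1.67 and -1.55). The 5 markers of sinusoidal endothelium summed to 48.1 to 96.4 CPM in cDC1-like and 166 to 457 in cDC2-like cells. Their part in the lowered genes was not tested. Without the Kupffer limit on cDC1-like cells, C1qc no longer passed (-0.55), and 199 genes were higher and 227 lower.

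Over pDC-like cells, the most raised genes were Tspan33, a tetraspanin (123 ± 19.3 CPM, at least 66.9-fold), Gcsam, the lipoprotein receptor Lsr (94.6 ± 15.4, at least 50.6-fold), the aminopeptidase CD13 gene Anpep (69.0 ± 13.6, at least 37.0-fold), A530099J19Rik (at least 39.4-fold), the Wnt receptor Fzd1 (68.7 ± 33.8, at least 36.7-fold), Fam149a (57.2 ± 16.8, at least 31.2-fold) and Tlr3. All but Tlr3 had 0 UMIs in pDC-like cells. These genes and Tlr3 passed the low-count filter through cDC1-like cells alone, so their direction was set by that filter. The 8 genes most lowered outside the rules all had 0 UMIs in cDC1-like cells. They passed the filter through pDC-like cells alone, so their direction was set in the same way. D13Ertd608e averaged 471 ± 117 CPM in pDC-like cells (at least 258-fold lower in cDC1-like cells) and the sodium pump subunit Atp1b1 445 ± 80.6 (at least 228-fold). Plaur, the urokinase receptor, Prkca, a protein kinase C, and the calcium pump Atp2a1 were at least 135-fold, 130.3-fold and 104-fold lower. Dntt, the terminal transferase of lymphoid precursors (152 ± 19.5 CPM), Sh3bgr and Cd4 (119.5 ± 22.8 CPM) were at least 83.5-fold, 70.7-fold and 65.1-fold lower.

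Among 17 growth factor receptors and transcription factors, 10 could be tested against cDC2-like cells, with 2 higher (Flt3 and Irf8) and 4 lower. That is 60% called, beside 15.7% of all genes, and the median was -0.46. Zeb2, a repressor required for cDC2 and pDC, stood at 14.1, 5.19, 11.8 and 14.2 CPM in cDC1-like cells, 135 to 227 in cDC2-like and 187 to 327 in pDC-like cells. It was low in every cDC1-like sum, with changes of -3.83 ± 0.42 and -4.13 ± 0.24. Klf4, a factor of a cDC2 subset, averaged 28.1 ± 4.93 against 143 ± 92.0 CPM in cDC2-like cells (-2.24 ± 0.37), and Csf1r, the macrophage growth factor receptor, 52.7 ± 14.4 against 279.8 ± 107 (-2.32 ± 0.29). Runx3, at 67.6 ± 7.86 against 148 ± 90.6 CPM (-1.07 ± 0.34), lost its call with DESeq2 and when exercise replicate 2 or either sedentary library was left out. Against pDC-like cells 12 could be tested, with 4 higher, 6 lower (83.3% called, beside 50.8% of all genes) and a median of -0.28. Spi1 (PU.1) averaged 488 ± 33.8 against 105 ± 11.4 CPM (2.55 ± 0.12) and the GM-CSF receptor subunit Csf2ra 196 ± 13.8 against 43.9 ± 9.75 (2.50 ± 0.18). Csf2rb2, the beta chain specific for IL-3 in the mouse, was lower, at 14 ± 4.18 against 111 ± 5.47 (-2.63 ± 0.28). Against cDC2-like cells, Spi1 stood at 596 ± 98.4 and Csf2ra at 286 ± 54.9 CPM and neither passed.

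Of 20 genes for MHC class I loading and cross-presentation, 17 could be tested against cDC2-like cells. Of these, 6 were higher and 3 lower (52.9% called, beside 15.7% of all genes), with a median of 0.22. The immunoproteasome subunit Psmb9 stood at 619, 648, 561 and 525 CPM in cDC1-like cells, 133 to 283 in cDC2-like and 239 to 270.4 in pDC-like cells. Its changes of 1.39 ± 0.20 and 1.59 ± 0.10 came with no overlap of the sums. The proteasome activator Psme1 averaged 756 ± 26.8 against 427 ± 28.5 CPM in cDC2-like cells (0.87 ± 0.16), the loading chaperone Pdia3 460.4 ± 35.1 against 276 ± 30.8 (0.80 ± 0.18) and Psmb8 1070.4 ± 122 against 757 ± 47.3 (0.55 ± 0.14). The peptide transporter subunit Tap2 (167 ± 13.3 against 97.3 ± 26.4 CPM) and Rab43, a GTPase needed for cross-presentation by cDC1 (94.5 ± 17.7 against 34.0 ± 26.2), also passed, at 0.84 ± 0.27 and 1.36 ± 0.45. Both lost the call with DESeq2, with library totals as the only scaling and when 1 of 3 libraries was left out. For Tap2 these were exercise replicate 1, exercise replicate 2 or sedentary replicate 1, and for Rab43 exercise replicate 1 or either sedentary library. Tap2 did not pass without the Kupffer limit either. After thinning to 1000 UMIs, where 322 genes could be tested, Psme1, Pdia3 and Psmb8 did not pass. Their changes were then 0.997, 0.58 and 0.56.

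H2-K1, a class I heavy chain, and its light chain gene B2m were lower. H2-K1 averaged 649 ± 53.2 CPM, against 1016 ± 104 in cDC2-like (-0.59 ± 0.14) and 1271 ± 44.4 in pDC-like cells (-0.61 ± 0.08). B2m averaged 2805 ± 277 CPM, against 3847 ± 247 (-0.40 ± 0.11) and 4150.4 ± 233 (-0.20 ± 0.06). Cybb, the catalytic subunit of the phagocyte NADPH oxidase, stood at 5.65, 33.7, 39.2 and 17.0 CPM, against 309 to 444 in cDC2-like and 571 to 629 in pDC-like cells. It was low in every cDC1-like sum, with changes of -3.83 ± 0.32 and -4.19 ± 0.17. B2m lost its call against cDC2-like cells without exercise replicate 1 or sedentary replicate 1, and against pDC-like cells without sedentary replicate 1. Without the low-count filter, neither H2-K1 (-0.26) nor B2m (-0.076) passed against cDC2-like cells. After thinning, H2-K1 did not pass against them either (-0.21). Against pDC-like cells 18 of the 20 could be tested, with 9 higher and 7 lower (88.9% called, beside 50.8% of all genes). The median was 0.11. With library totals as the only scaling, the median became -0.27, with 6 higher and 9 lower. Tap1 (213 ± 41.9 against 101 ± 14.9 CPM, 1.47 ± 0.15), Tap2 (1.26 ± 0.16), Psme1 (1.07 ± 0.09) and Rab43 (4.04 ± 0.33) were higher than in pDC-like cells, and H2-D1 was lower (-0.34 ± 0.07).

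**Figure D3:**
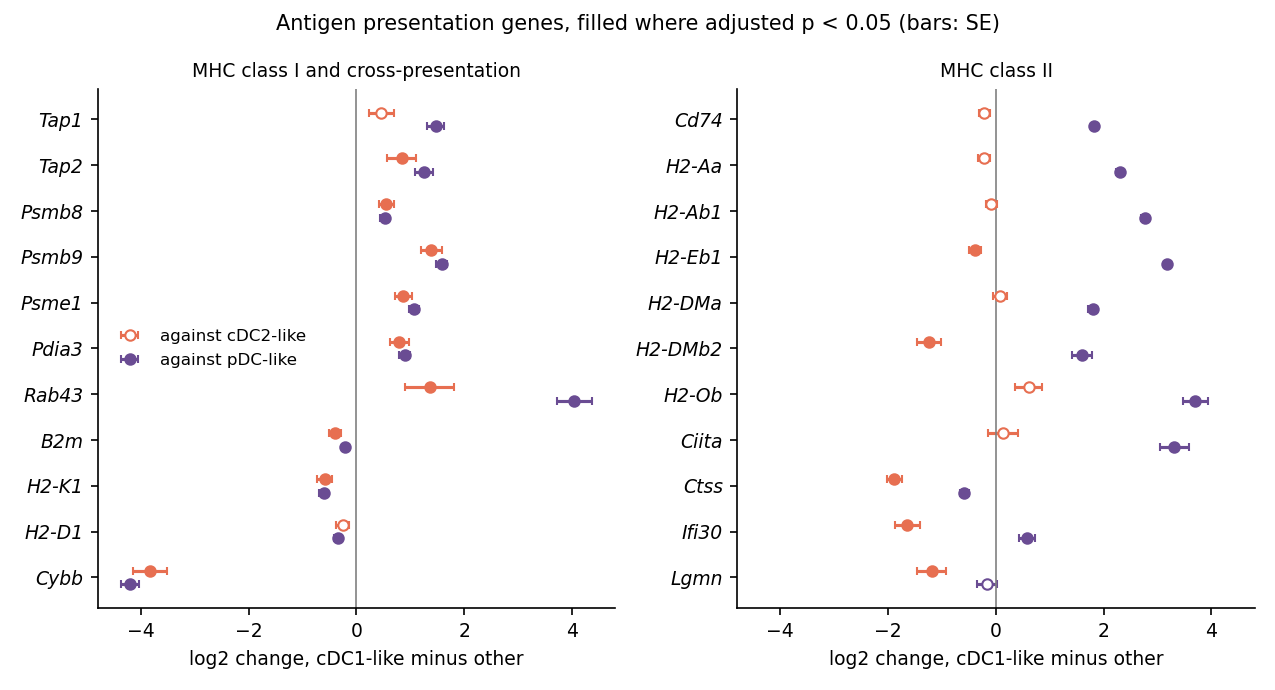
Change (log2, x axis, with standard error) of genes of MHC class I loading and cross-presentation and of MHC class II presentation in cDC1-like cells against cDC2-like and pDC-like cells; filled points passed at an adjusted p under 0.05. Psmb9 and Rab43 lie to the right in both comparisons and Cybb far to the left in both. Of 13 class II genes tested, 11 were higher than in pDC-like cells, beside 24.6% of all genes, and 0 higher than in cDC2-like cells, beside 7.54%.

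MHC class II transcripts were abundant. H2-Aa, the class II alpha chain, stood at 10478, 10090.0, 10483 and 10761 CPM in cDC1-like cells, 11261 to 14045 in cDC2-like and 2439 to 3031 in pDC-like cells. Of 14 class II genes, 13 could be tested against cDC2-like cells, with 0 higher and 6 lower. That is 46.2% called, beside 15.7% of all genes, and the median was -0.22. The lowered ones were mainly in processing. The protease Ctss stood at 429.7, 573, 477 and 442 CPM, against 1626 to 2112 in cDC2-like cells (-1.88 ± 0.14). The lysosomal thiol reductase Ifi30 averaged 187 ± 37.9 against 637 ± 266 (-1.64 ± 0.23), the protease Lgmn 81.8 ± 23.2 against 194 ± 95.7 (-1.19 ± 0.27) and the peptide editor chain H2-DMb2 142 ± 17.6 against 360.2 ± 157 (-1.24 ± 0.23). H2-Eb1 (-0.39 ± 0.11) and H2-Oa (-0.58 ± 0.19) also passed. Lgmn lost its call without exercise replicate 2, the Kupffer limit or the low-count filter. H2-Eb1 lost its call without exercise replicate 1, sedentary replicate 1 or that filter. Against pDC-like cells 11 of 13 were higher and 1 (Ctss, -0.58 ± 0.09) lower, with a median of 1.83. That is 92.3% called, beside 50.8% of all genes. H2-Ab1 averaged 12054 ± 709.9 against 2286 ± 209 CPM (2.77 ± 0.07), the invariant chain Cd74 29419 ± 1564 against 10683 ± 635 (1.83 ± 0.06) and the transactivator Ciita 110.3 ± 24.3 against 13.9 ± 7.30 (3.31 ± 0.27). With library totals as the only scaling, 10 were higher and 2 lower.

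Sensors and signals differed as well. Of 15 sensing genes, 3 could be tested against cDC2-like cells, and Tlr3 alone passed (33.3% called, beside 15.7% of all genes). Against pDC-like cells 8 could be tested, with 3 higher (Tlr3, Tlr11 and Irf5) and 3 lower (Tlr7, Tmem173 and Unc93b1). That is 75% called, beside 50.8% of all genes. Unc93b1 (-0.23 ± 0.09) lost its call with DESeq2 (adjusted p = 0.242) and without exercise replicate 1 (edgeR adjusted p = 0.0548) or sedentary replicate 1 (0.320). Tlr7, the pDC sensor of single-stranded RNA, had 0 UMIs in cDC1-like cells and 60.3 to 85.8 CPM in pDC-like cells, at least 38.6-fold lower. Tlr11, the profilin sensor, stood at 53.7, 41.5, 37.3 and 51 CPM in cDC1-like cells, with 0 UMIs in pDC-like cells (at least 24.4-fold) and 1 in cDC2-like cells. Of the costimulatory and inhibitory genes, 5 of 14 could be tested against cDC2-like cells and 1 was higher (20% called, beside 15.7% of all genes). This was Cd86, the CD28 ligand, at 119.5 ± 27.9 against 53.3 ± 18.3 CPM (1.26 ± 0.33). Its call was lost with DESeq2 and without exercise replicate 2. Against pDC-like cells 6 could be tested, with 5 higher, among them Cd86 (4.39 ± 2.30 CPM in pDC-like cells, 5.01 ± 0.33) and Havcr2 (TIM-3; 64.9 ± 5.56 against 4.43 ± 4.66, 4.14 ± 0.40). Cd200 was lower (-2.61 ± 0.25), which makes 100% called, beside 50.8% of all genes.

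Cytokine and chemokine transcripts were mostly lower than in cDC2-like cells. Of 20, 6 could be tested against cDC2-like cells, with 0 higher and 5 lower (83.3% called, beside 15.7% of all genes). The median was -2.74. Il1b averaged 30.4 ± 24.4 against 247 ± 227 CPM (-2.90 ± 0.33) and Ccl6 64.5 ± 10.9 against 624 ± 719 (-2.86 ± 0.38). Ccl5 (44.0 ± 32.3 against 359 ± 528 CPM, -2.62 ± 0.54) rested on sedentary replicate 1, where cDC2-like cells had 1148 CPM. It did not pass without that library (-1.09) or with DESeq2. Tgfb1 (-0.71 ± 0.21) did not pass with DESeq2, or without exercise replicate 2 or sedentary replicate 2. Against pDC-like cells 7 could be tested, with 4 higher and 3 lower (100% called, beside 50.8% of all genes). The ligand of CXCR6, Cxcl16, averaged 161 ± 31.8 against 9.11 ± 6.47 CPM (4.45 ± 0.27) and Il18 39.3 ± 4.87 against 2.12 ± 2.49 (4.2 ± 0.53). The chemokine gene Ccl4 was lower, at 22.7 ± 30.7 against 552 ± 639.8 CPM (-4.22 ± 0.19).

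Among chemokine receptors and adhesion genes, 8 of 14 could be tested against cDC2-like cells, with 1 higher and 2 lower. That is 37.5% called, beside 15.7% of all genes. Cxcr3, a receptor for interferon-induced chemokines, stood at 79.2, 67.4, 54.9 and 45.4 CPM, with 1 UMI in cDC2-like cells (19.6-fold, 3.44 to 783). pDC-like cells also carried it, at 77.9 to 107 CPM. Cx3cr1 (6.36 ± 7.47 against 86.5 ± 15.7 CPM, -3.68 ± 0.67) and the integrin CD11c gene Itgax (93 ± 12.1 against 258 ± 123, -1.35 ± 0.28) were lower. Against pDC-like cells 4 of 9 were higher and 2 lower (66.7% called, beside 50.8% of all genes). Ccr2 (256 ± 59.5 against 167 ± 54.4 CPM, 0.97 ± 0.13) and Itgax (1.48 ± 0.22) were among the higher ones.

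Cell cycle transcripts were carried by a subset of cDC1-like cells. Of 22 cell cycle genes, 6 could be tested against pDC-like cells and all 6 were higher (100% called, beside 50.8% of all genes). The median change was 3.29. The low-count filter keeps a gene that is high enough in 1 cell type. Genes near 0 in pDC-like cells thus entered through cDC1-like cells alone, and for them the direction was set by that filter. Ube2c, a mitotic ubiquitin enzyme, stood at 36.8, 75.2, 74.5 and 90.7 CPM in cDC1-like cells and 0 to 14.3 in pDC-like cells (4.01 ± 0.37). Top2a, which untangles replicated DNA, stood at 42.4, 41.5, 80.4 and 48.2 against 0 to 12.7 CPM (3.68 ± 0.41), Birc5 averaged 53.9 ± 16.8 against 4.43 ± 4.74 (3.69 ± 0.40) and Stmn1 157 ± 68.8 against 22.9 ± 18.9 (2.90 ± 0.22). Pcna was closest, at 56.2 ± 15.6 against 45 ± 12.8 CPM (0.66 ± 0.24). It lost its call with DESeq2, with library totals as the only scaling or without exercise replicate 1 or sedentary replicate 1. Top2a counts were uneven over cells: in sedentary replicate 2, 12 of 17 Top2a UMIs came from 1 cell. Against cDC2-like cells 4 could be tested and Ube2c alone passed (2.22 ± 0.63), which is 25% called, beside 15.7% of all genes. Its call was lost without exercise replicate 2 or sedentary replicate 1.

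The share of cDC1-like cells with at least 2 of the 22 cell cycle genes was 50%, 41.5%, 38.5% and 23.3%. In pDC-like cells it was 14.3%, 17.6%, 12.9% and 13.2%, from cells sampled at a lower depth. With each cell thinned to 1000 UMIs, the share was 11.1%, 14.6%, 16.9% and 4.65% in cDC1-like cells and 0%, 3.05%, 0% and 0% in pDC-like cells. In cDC2-like cells, 10 to 19 per library, it was 0% to 15.4% after thinning. A count of 0 in 77, 70 and 91 cells allows a share of up to 3.90%, 4.29% and 3.30%. The cDC1-like share was above the pDC-like share in 4 of 4 libraries at equal depth, and 0 cells of either type were left out as shallower. By condition it was 45.7% ± 6.04 in exercise and 30.9% ± 10.8 in sedentary libraries, with both exercise libraries higher (exact permutation p = 0.33, the smallest possible). After thinning it was 12.9% ± 2.49 and 10.8% ± 8.68 and the groups overlapped (exact permutation p = 1). With at least 5 genes asked for, it was 11.1%, 26.8%, 21.5% and 9.30%. Free RNA can add UMIs to any cell, and no phase was called.

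**Figure D4:**
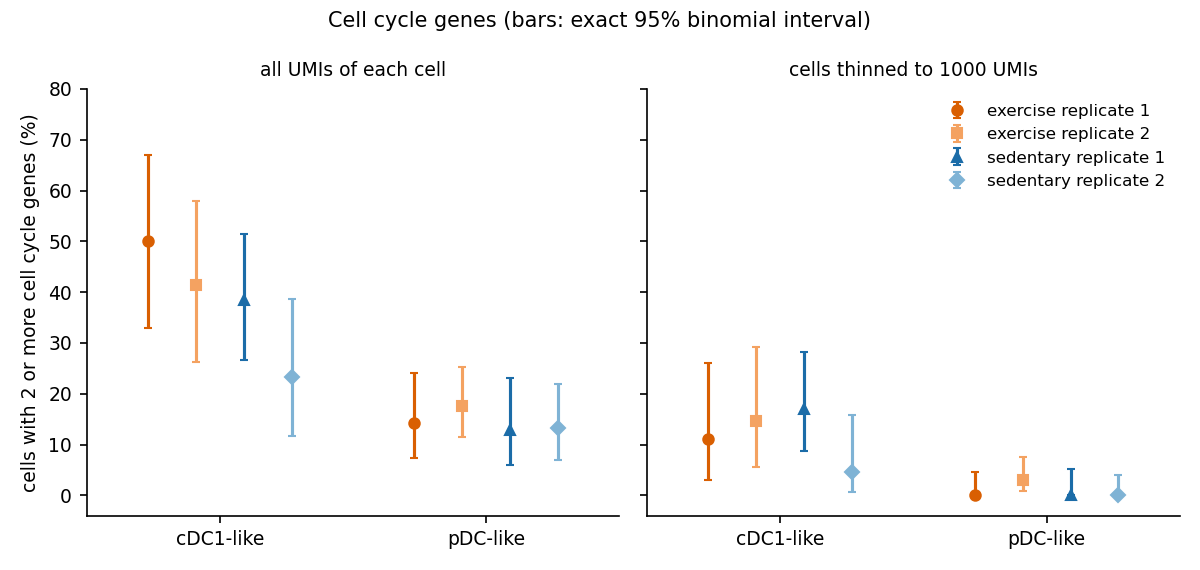
Share of cells with at least 2 of 22 cell cycle genes (y axis, percent) in each library, for cDC1-like and pDC-like cells, with all UMIs and after thinning to 1000 UMIs per cell; bars are exact 95% binomial intervals. After thinning, cDC1-like cells stood at 4.65% to 16.9% and pDC-like cells at 0% to 3.05%.

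Exercise and sedentary libraries were then compared within the cDC1-like cells. No gene passed among 3687 tested (edgeR's quasi-likelihood test, 0% called, smallest adjusted p 0.838). At an unadjusted p under 0.05 there were 160 genes, 68 higher and 92 lower with exercise, and DESeq2 also called 0, with 21 at that unadjusted level. Groups that did not overlap were found for 31.6% of all genes tested. The genes described next are those with the smallest p in each direction and the leading members of fixed lists, and each adjusted p was 0.838 or above.

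Genes higher with exercise by smallest p included Ccnd1, which encodes cyclin D1, at 195 and 176 CPM with exercise against 104 and 111 (0.77 ± 0.22). Vsir, which encodes the inhibitory receptor VISTA, stood at 124 and 90.8 against 49.0 and 53.9 CPM (1.04 ± 0.30). Both had separate groups in sums of at least 19 UMIs per library. Acot8, a peroxisomal thioesterase, stood at 36.8 and 31.1 against 3.92 and 8.51 CPM, from 13, 12, 2 and 3 UMIs. Nostrin, a nitric oxide synthase trafficking protein, stood at 39.6 and 36.3 against 5.88 and 14.2 CPM, and the histone gene Hist1h2ap at 48.1 and 244 against 37.3 and 17.0 CPM. The Hist1h2ap level rested on 1 cell of exercise replicate 2, which gave 64 of 94 UMIs.

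Genes lower with exercise included Ap2a2, a subunit of the clathrin adaptor AP-2, at 33.9 and 33.7 against 84.3 and 87.9 CPM (-1.37 ± 0.32). The histone variant gene H3f3b stood at 868 and 1011 against 1277 and 1276 (-0.47 ± 0.14), and Adss at 25.4 and 23.3 against 56.9 and 62.4. In each the groups did not overlap. Marcksl1 (105 and 36.3 against 216 and 147 CPM) came largely from single cells, with 23 of 37, 53 of 110 and 21 of 52 UMIs from 1 cell in exercise replicate 1, sedentary replicate 1 and sedentary replicate 2. Its direction turned in cells without hepatocyte transcripts (0.25).

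The immediate early and heat shock list leaned lower with exercise, with 17 of 21 tested genes negative and a median of -0.27, beside -0.0023 for all genes. For 8 of the 21 the groups did not overlap and exercise was lower, and for 2 it was higher. Over all genes tested, 31.6% did not overlap in either direction. Zfp36, which destabilises cytokine mRNAs, stood at 133 and 161 against 216 and 255 CPM (-0.70 ± 0.21), Egr1 at 167 and 176 against 212 and 346 (-0.71 ± 0.23) and the orphan receptor Nr4a1 at 33.9 and 33.7 against 54.9 and 85.1 (-1.03 ± 0.36). The NF-kB list had 7 of 9 tested genes negative and a median of -0.59. The inhibitor gene Nfkbia stood at 198 and 213 against 255 and 343 CPM (-0.56 ± 0.20), Nfkbiz at 11.3 and 10.4 against 33.3 and 28.4 (-1.53 ± 0.57) and Birc3 at 14.1 and 25.9 against 45.1 and 42.5 (-1.14 ± 0.44). None of these passed, and Egr1 passed only when sedentary replicate 1 was left out.

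Sedentary replicate 2 stood apart for several activation genes. Cd83, a dendritic cell activation marker, stood at 50.9, 64.8, 37.3 and 233 CPM, and in that library 29 of 43 cells had a UMI. Isg15 stood at 17.0, 28.5, 19.6 and 139 CPM and Irf7 at 93.3, 64.8, 56.9 and 241. For these interferon genes 1 cell gave 40 of 49 and 74 of 85 UMIs. Without that library the direction turned for all 3 (0.62, 0.20 and 0.45). Il1b (14.1 and 13 against 29.4 and 65.2 CPM) and Ccl5 (17.0 and 31.1 against 37.3 and 90.7) were also highest there, though sedentary replicate 1 exceeded both exercise libraries as well. For Il1b, 1 cell of sedentary replicate 1 gave 9 of 15 UMIs. Only 9.23% of its cells had an Il1b UMI, against 13.9% and 12.2% in the exercise libraries. The plot of genes by library shows the spread.

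**Figure D5:**
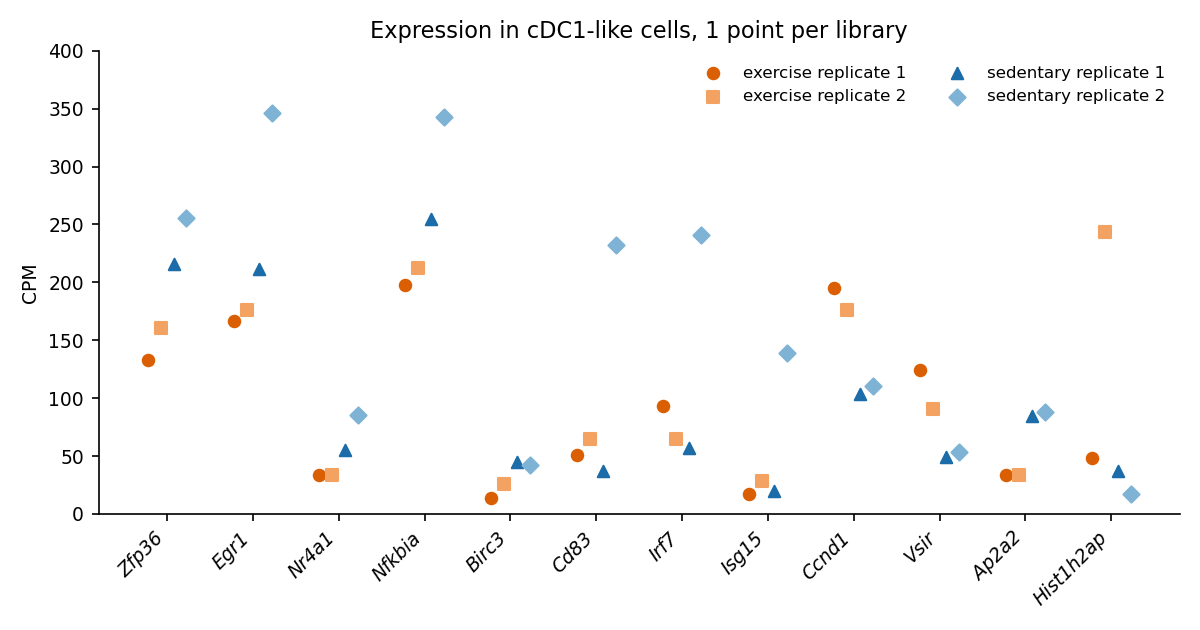
Levels of 12 genes in cDC1-like cells of each library (y axis, CPM; 1 point per library). Zfp36, Nfkbia, Birc3 and Ap2a2 were higher in both sedentary libraries, Ccnd1 and Vsir in both exercise libraries, and Cd83, Isg15 and Irf7 were high in sedentary replicate 2 alone.

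The identity list had a median of 0.15 with 13 of 18 tested genes positive. In it 6 genes were higher and 2 lower without overlap, beside 31.6% of all genes in either direction. Rab7b led it at 353 and 277 against 253 and 249.5 CPM (0.30 ± 0.19). MHC class I and cross-presentation genes had a median of 0.0024, with Tapbp at 198 and 231 against 161 and 147 CPM (0.44 ± 0.20) and Tap1 at 229 and 259 against 161 and 201 (0.41 ± 0.20). MHC class II genes had a median of 0.067. H2-DMb1 led them at 1018 and 1094 against 855 and 885 CPM (0.25 ± 0.14). Sensing genes had a median of 0.13, costimulatory genes -0.13, cytokines -0.21, chemokine receptors 0.17, receptors and transcription factors -0.035 and cell cycle genes -0.14. Cxcr3 stood at 79.2 and 67.4 against 54.9 and 45.4 CPM (0.50 ± 0.31) and Csf1r at 67.9 and 62.2 against 41.2 and 39.7 (0.65 ± 0.32). Cenpa, a centromere histone, stood at 36.8 and 57.0 against 72.6 and 76.6 (-0.68 ± 0.32).

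Summed markers of some other cells separated the groups and those of others overlapped. Hepatocyte markers, 10 of 10 with UMIs, summed to 31.1, 25.9, 219.7 and 76.6 CPM. Erythroid transcripts came to 0, 0, 21 and 0 UMIs, and the 11 Kupffer markers to 588, 589, 655 and 757 CPM. Neutrophil markers summed to 0, 33.7, 47.1 and 68.1 CPM with Cxcr2 at 0, and NK markers to 87.6, 90.8, 145 and 122 with Ncr1 at 0. The hepatocyte, Kupffer, neutrophil and NK sums were thus higher in both sedentary libraries. The groups overlapped for T cell markers, from 17.0 to 31.2 CPM with Cd3e and Cd4 at 0, and for B cell markers, from 13 to 31.4. They also overlapped for the next 3 lists. Monocyte markers ranged from 1074 to 1512 CPM, pDC markers from 46.7 to 68.1 and cDC2 markers from 47.1 to 99.2. The part of these lists in the differences above was not tested. In the 107 cells without a hepatocyte UMI (25, 35, 20 and 27), edgeR called 0 of 2543 genes, with 86 at an unadjusted p under 0.05. The fit on all cDC1-like cells also called 0, so this count cannot show what part hepatocyte transcripts had.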

How the data were processed

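Per the labels' protocols, hepatic CD45+ cells were selected with beads and libraries made with a 10x Genomics 3' kit. The deposited values are raw UMI counts per gene and barcode (27998 genes). Per the submitters' processing notes, the authors used Cell Ranger, Seurat 3.1 and mm10 (GRCm38). A pre-mRNA reference is named in the series text, so intronic reads may be part of the counts. The Cell Ranger version and the use of strand are not given in the sources used here. The 4 libraries held 10050976 to 14849778 UMIs in 15383 barcodes, and 15020 passed limits of 500 UMIs and 200 genes or more and a mitochondrial share of 20% or less.

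Cells were chosen by marker rules, not by clustering. Doublets were scored per library against simulated ones at 0.8% per 1000 barcodes and kept, and the caller marked 2 of 185 members. Counts were summed per library and cell type, filtered with filterByExpr, scaled by TMM and tested with edgeR 4.0.16 (R 4.3.3), glmQLFit and glmQLFTest, at a Benjamini-Hochberg adjusted p under 0.05 over all genes tested. Comparisons of cell types pooled both conditions with library as a block. DESeq2 1.42.0, RLE factors, library totals, no low-count filter, each library left out, other member rules, cells without hepatocyte UMIs and thinning to 1000 UMIs were alternatives. Of these, library totals, cells without hepatocyte UMIs and dropping the Kupffer or every exclusion limit were chosen after seeing the data. Shares were compared with exact permutation tests (scipy 1.17.1) and exact binomial intervals. Scripts were tested on simulated data.

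Named genes were, for cell types, up to 8 per direction with the largest change, at least 50 CPM in one group and 1 direction in 4 of 4 libraries, plus 2 lists; for exercise, up to 5 per direction by smallest p and 3 per list. Further examples from a list were picked with their values in view. Some genes the rule names are not reported here. The members and lists were chosen with earlier results of these data known. Coordinates are from GENCODE on GRCm38, and promoter windows from RefSeq. Mature dendritic cells were not compared, since exercise libraries held 8 and 7.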

Additional observations from a re-analysis of the deposited data

How the results depend on the processing

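The cDC1-like share kept its direction (lower with exercise) under the other thresholds, denominators, thinning and doublet removal, and turned to 0.270 percentage points higher without the Kupffer limit and 0.261 without any exclusion. With 2 libraries a group, no permutation test could pass. The count of genes called with exercise moved from 0 to 3 higher and 8 lower without the low-count filter, and to 1 to 5 higher and 1 to 16 lower with 1 library left out, where the lone library of a group is assumed to vary like the other group. Against cDC2-like cells, DESeq2 called 108 higher, leaving out the low-count filter gave 431 higher (with the median of all genes at 0.35), and thinning gave 18 higher and 25 lower of 322 tested. With 1 library left out, 140 to 189 were higher and 143 to 214 lower. Against pDC-like cells, DESeq2 called 657 lower, thinning gave 206 higher and 256 lower of 898, library totals as the only scaling gave 629 higher and 1857 lower, and with 1 library left out 933 to 962 were higher and 936 to 997 lower. The causes were not tested, apart from fewer genes tested after thinning.

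Replicate numbers were shared by label only: the deviations of same-numbered libraries correlated at 0.083 over 3687 genes. With the replicate block, 1 gene was higher and 2 lower with exercise.

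Of 52 genes named for exercise, 12 turned direction under some setting, and 0 of these 16 values passed. With each library left out in turn, the changes ranged from -0.15 to 0.41 for Flt3, -0.021 to 0.67 for Irf3 (both turned without exercise replicate 1), -0.24 to 0.72 for Icam1 (without exercise replicate 2), -2.04 to 0.62 for Cd83, -2.63 to 0.20 for Isg15 and -1.65 to 0.45 for Irf7 (all 3 without sedentary replicate 2). Tmem173 turned (-0.18) with at least 2 markers, and Top2a (0.44), Ube2c (0.059), H2-DMb2 (-0.053) and Itgb7 (-0.0088) without the Kupffer limit. In cells without hepatocyte UMIs, Marcksl1 (0.25), H2-DMb2 (-0.037), Irf3 (-0.012), Flt3 (-0.13) and Irf7 (1.09) turned. Under some alternative, mostly a library left out, 9 passed, among them Hist1h2ap, Marcksl1, Cd83, Il1b, Ccl5, Egr1, Isg15 and Irf7. Against cDC2-like cells, Spi1 turned to 0.10 without the filter and Stat3 to 0.32 without sedentary replicate 1 (-0.72 to 0.32 over libraries left out). Against pDC-like cells, Relb turned to 0.017 with DESeq2 and 0.55 without exercise replicate 2 (from -0.47), Runx3 to -0.27 and Aldoa to -0.097 with library totals, and Aldoa to -0.32 after thinning. Calls were lost under some setting for 17 genes against cDC2-like and 12 against pDC-like cells. Depth limits the cDC2-like side most, with 320785 UMIs in 54 cells.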

Other observations

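Lists of energy metabolism and stress genes were also compared, beside 50.8% of all genes called against pDC-like and 15.7% against cDC2-like cells. Of 25 glycolysis and TCA cycle genes, 20 could be tested in cDC1-like against pDC-like cells (edgeR, adjusted p under 0.05), with 11 higher, 2 lower (65% called) and a median of 0.52 (log2), or 7 higher, 4 lower and 0.14 with library totals as the only scaling. Gapdh averaged 647 ± 136 against 362 ± 43.0 CPM (1.20 ± 0.09) and Ldha, lactate dehydrogenase A, 525 ± 58.4 against 294 ± 19.0 (1.20 ± 0.10). Ldha was also higher than in cDC2-like cells (336 ± 59.6 CPM, 0.71 ± 0.18), a call lost with DESeq2, without exercise replicate 2 and after thinning. Against cDC2-like cells 14 genes of this list could be tested, with 1 higher, 2 lower (21.4% called) and a median of -0.11. Mitochondrially encoded transcripts summed to 23326 to 26312 CPM in cDC1-like, 21711 to 38961 in cDC2-like and 41056 to 45358 in pDC-like cells, and 10 of 12 tested genes were lower than in pDC-like cells, with 0 higher and a median of -0.47. mt-Co1 led at 4217 ± 175 against 8229 ± 423 CPM (-0.60 ± 0.06).

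Of 20 immediate early and heat shock genes tested against pDC-like cells, 13 were higher and 3 lower (80% called), with a median of 1.07. Fos averaged 846 ± 115 CPM in cDC1-like, 363 ± 105 in cDC2-like and 92.4 ± 36.8 in pDC-like cells (1.29 ± 0.16 and 3.60 ± 0.12), and Jun 177 ± 48.3 against 76.2 ± 24.2 in pDC-like cells (1.56 ± 0.17). Against cDC2-like cells 3 of 21 were higher and 2 lower (23.8% called). Of the interferon-stimulated genes, 6 of 11 tested were lower than in pDC-like cells (54.5% called, median -0.58) and 3 of 8 lower than in cDC2-like cells (37.5% called, median -1.14), with 0 higher in either and the rest not passing. Bst2, the pDC antigen tetherin, averaged 132 ± 25 CPM, against 266 ± 56.3 in cDC2-like and 3629 ± 184 in pDC-like cells, and its call against cDC2-like cells was lost without exercise replicate 2. NF-kB genes had 2 higher and 2 lower of 12 against pDC-like cells and 0 higher and 2 lower of 7 against cDC2-like cells.

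With exercise, 11 of 12 tested mitochondrially encoded genes were negative (median -0.11) and 12 of 20 glycolysis and TCA genes positive (median 0.080). Groups did not overlap for 3 mitochondrial genes, all lower. In the glycolysis and TCA list they did not overlap for 6 higher genes and 1 lower. Over all genes tested, 31.6% did not overlap in either direction. mt-Nd3 stood at 141 and 140.0 CPM with exercise against 200 and 198 without (-0.53 ± 0.20). Interferon-stimulated genes had a median of -0.042. None of these genes passed.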
